A study of Homo sapiens with 6 samples.

Results

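The genes described here are the collagen chains, taken as every row of the deposited count table whose symbol is COL, a type number, the letter A and a chain number. There were 44 such rows among 55882, and 36 of them passed the filter on low counts that left 22352 genes for testing. The chains were grouped as fibrillar (11 chains), basement membrane (6), beaded filament (5) and FACIT, the fibril-associated collagens with interrupted helices (10), and 12 chains belong to other classes. Pseudogenes and antisense genes of collagen loci, such as COL6A4P1 and COL4A2-AS1, do not match this rule.

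Polyadenylated RNA was sequenced from DIvA cells, a derivative of the human osteosarcoma line U2OS in which adding 4-hydroxytamoxifen (4-OHT) brings a fused restriction enzyme into the nucleus to cut DNA. One group carries wild-type p53 (p53 WT, 3 libraries) and the other is a p53 knockout (p53 KO, 3 libraries). Every library came from cells given 300 nM 4-OHT for 5 h, and untreated cells were not analysed here. The labels do not say how the knockout was made, whether it is 1 clone or whether replicates were separate cultures. The p-values therefore measure only the spread between these samples, which may be technical.

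Collagens are secreted proteins whose chains wind around each other into a rope-like helix. Fibrillar chains build the tensile fibrils of bone, skin and tendon, collagen IV chains build the sheet under epithelia and vessels, collagen VI chains build beaded microfilaments, and FACIT chains sit on the surface of fibrils. A helix forms from set combinations of chains, so the levels of partner chains are read beside each other below. Bone matrix is rich in collagen I, made of COL1A1 and COL1A2, and osteoblasts are its main producers.

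Total counts per library ranged from 20393909 to 79767519, and levels are given below as CPM, counts scaled to library size with TMM factors. Where a library has 0 counts of a gene, counting error alone leaves room for 3 counts, or 0.0381 to 0.15 CPM depending on the library. CDKN1A, the p53-induced cell cycle inhibitor, was at 520 to 572 CPM in p53 WT and 41.8 to 49.1 CPM in p53 KO. MDM2, another p53 target, was at 187 to 242 CPM in p53 WT and 42.9 to 68.9 CPM in p53 KO.

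Marker lists of several cell types are read against all genes tested, of which 26.5% were called at an adjusted p under 0.05 by edgeR, 12.1% higher and 14.4% lower in p53 KO. Of the 6 osteoblast lineage markers, 3 (RUNX2, ALPL and SPP1) were lower in p53 KO and SP7 and IBSP had 0 counts in every library. BGLAP had no call, at 1.44 to 1.79 CPM in p53 WT and 1.025 to 2.70 CPM in p53 KO. The list's summed level was 79.7 to 88.9 CPM in p53 WT and 16.3 to 25.9 CPM in p53 KO. Most of the p53 WT sum was SPP1, which had 58.3 to 70.2 CPM in p53 WT and 7.86 to 14.3 CPM in p53 KO. Of 8 fibroblast and mesenchyme markers, 4 (VIM, THY1, FAP and PRRX1) were lower and PDGFRB was higher, with a summed level of 3340 to 4000 CPM against 1740 to 1880 CPM. VIM alone had 3077 to 3728 CPM in p53 WT and 1531 to 1663 CPM in p53 KO. Such sums follow the most abundant markers of a list. TWIST1 had 0 counts in 5 of 6 libraries and 14 in p53 KO replicate 1, and DCN and LUM stayed under 1 CPM. Of 8 epithelial markers 3 (KRT8, ESRP2 and CLDN7) were higher, at 491 to 550 against 580 to 706 CPM in sum. Of 6 endothelial markers 3 (ROBO4, ERG and SOX18) were higher, at 28.7 to 29.1 against 47.4 to 51.5 CPM, and CDH5 stayed under 1 CPM. Of 7 leukocyte markers 3 (ITGB2, CORO1A and CD74) were higher, at 7.72 to 8.32 against 17.9 to 21.7 CPM. Of 5 chondrocyte markers HAPLN1 was higher and SOX9 lower, at 108 to 113 against 118 to 133 CPM, and COMP had 0 counts in 5 of 6 libraries and 11 in p53 KO replicate 2. With the median log2 fold change of the 50 nearest genes taken off, ESRP2, ERG, SOX18 and SOX9 lost their calls. TEK, an endothelial marker without a call before, was then called higher. The part of these markers in the collagen results was not tested, and in bulk RNA fewer cells of a type and less RNA per cell cannot be told apart. The genes in these sentences were chosen after their values were seen.

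Collagen chains split between the groups: 8 were higher and 9 lower in p53 KO by edgeR's quasi-likelihood test at an adjusted p under 0.05. The 17 called chains are 47.2% of the 36 tested, where 26.5% of all genes tested were called, 12.1% higher and 14.4% lower. Among chains that reach 1 CPM in 3 libraries, 17 of 27 (63%) were called, against 34.5% of all genes past that filter. The median log2 fold change (p53 KO over p53 WT) of the tested chains was 0.08, and that of all genes tested was 0.01. The groups did not overlap for 18 of the 36 tested chains and for 40.8% of all genes tested. A change of at least 2-fold was called for 13 chains, and for 9.25% of all genes.

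**Figure D1:**
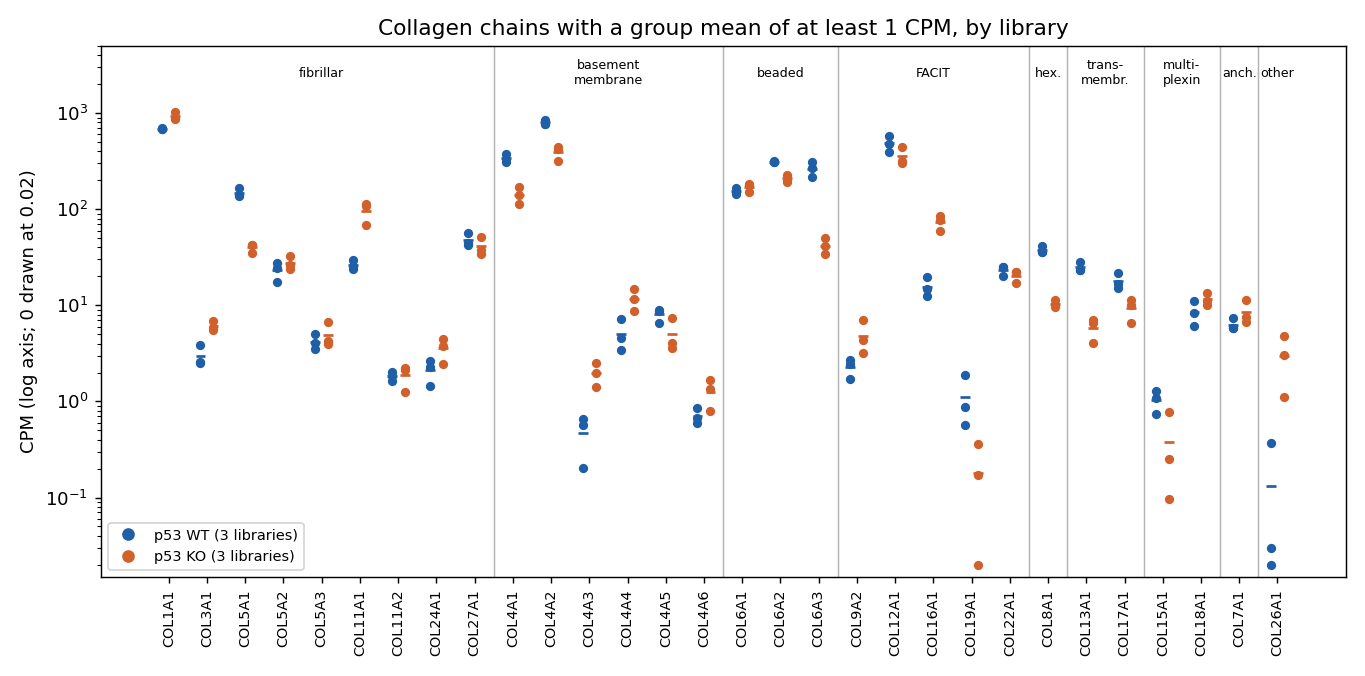
CPM of the 30 collagen chains with a mean of at least 1 CPM in either group, on a log axis, with 1 point per library and a short line at the group mean. COL6A3, COL5A1, COL8A1 and COL13A1 sit lower in all 3 p53 KO libraries, and COL11A1 and COL16A1 sit higher.

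**Figure D2:**
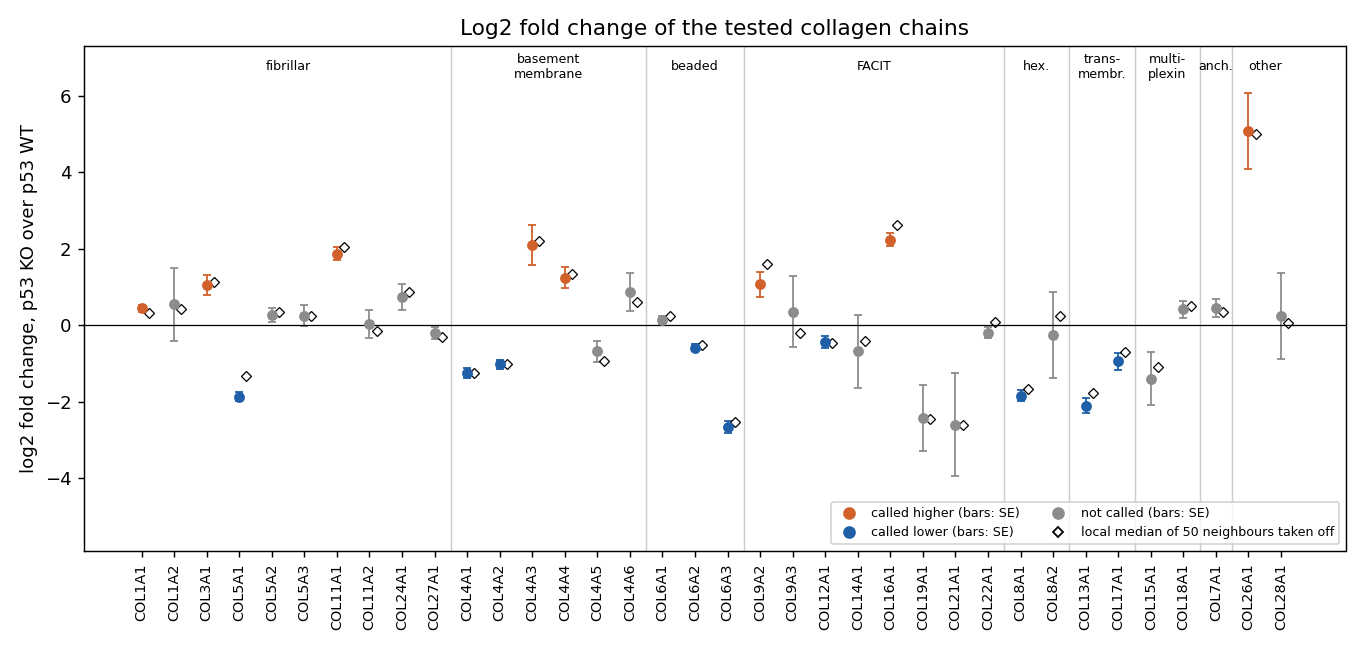
Log2 fold change (p53 KO over p53 WT) of the 36 tested chains by class, with bars of 1 SE, coloured where adjusted p was under 0.05. Open diamonds give the value after the median of the 50 nearest genes was taken off, which left the sign of all 17 called chains as it was.

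Summed over all chains, collagen counts were lower in p53 KO, but the classes differed in direction. The summed level was 3215, 3407 and 3747 CPM in p53 WT replicates 1, 2 and 3 and 2345, 2769 and 2782 CPM in p53 KO replicates 1, 2 and 3. Basement membrane chains went from 1153 ± 89.9 to 555 ± 92.8 CPM (SD, n = 3) and beaded filament chains from 733 ± 53.5 to 421 ± 25.3 CPM (SD, n = 3). Fibrillar chains went the other way in sum, from 944 ± 39.0 to 1151 ± 91.4 CPM (SD, n = 3). Within that sum COL1A1 went from 687 ± 10.7 to 929 ± 82.8 CPM (SD, n = 3), a larger rise than that of its class. Without COL1A1 the mean fibrillar sum was lower in p53 KO than in p53 WT. For these 3 classes the groups did not overlap, while FACIT chains overlapped at 530 ± 93.1 and 455 ± 87.8 CPM (SD, n = 3). Such sums follow their most abundant chains and are given as a description.

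**Figure D3:**
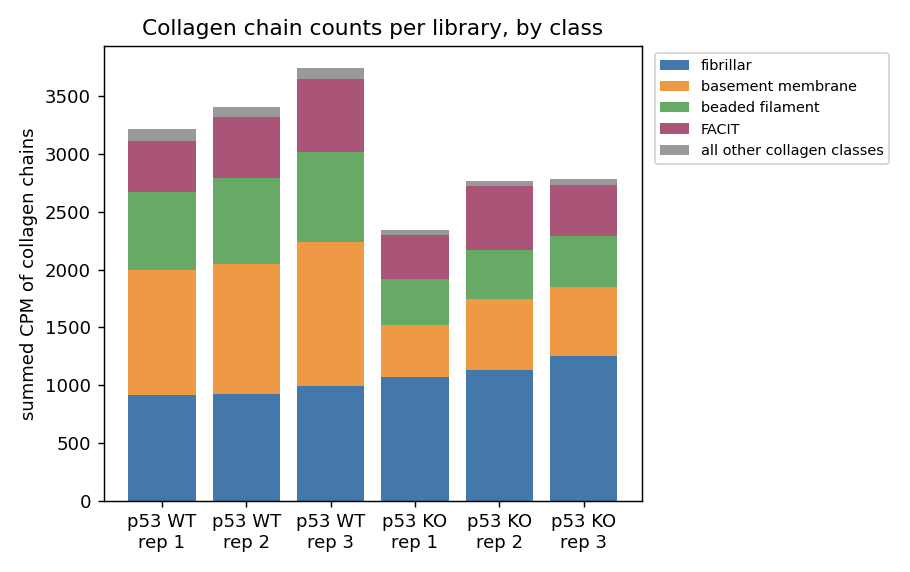
Summed CPM of collagen chains in each library, stacked by class from 0. The basement membrane part is 1081 to 1254 CPM in p53 WT and 448 to 618 CPM in p53 KO, while the fibrillar part is 918 to 988 and 1073 to 1252 CPM.

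COL1A1 and COL4A2 changed places as the chain with most counts. COL4A2 took 23.2% ± 0.522 of all collagen counts in p53 WT and 14.8% ± 1.29 in p53 KO (SD, n = 3). COL1A1 took 19.95% ± 1.31 in p53 WT and 35.4% ± 3.60 in p53 KO (SD, n = 3). Per kilobase of annotated exon, which allows genes to be set side by side, COL1A1 had the highest level in both groups, with 102 and 138 CPM per kb. COL6A2 came next, with 71.2 and 47.4 CPM per kb.

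Among fibrillar collagens 3 of 10 tested chains rose (COL1A1, COL3A1 and COL11A1), 1 fell (COL5A1) and 6 had no call. That is 40% called, beside 26.5% of all genes tested and 34.5% of those that reach 1 CPM in 3 libraries. The median log2 fold change of the 10 was 0.35. COL11A1, a minor fibrillar chain known from cartilage that helps set fibril width, had 24.1, 25.7 and 29.8 CPM in p53 WT replicates 1, 2 and 3. In p53 KO it had 68.0, 115 and 107 CPM. Every p53 KO library was above every p53 WT library, and the log2 fold change was 1.87 (SE 0.17, adjusted p = 2.99e-06). COL1A1, the main chain of bone collagen, had 684, 678 and 699 CPM in p53 WT and 895, 868 and 1023 CPM in p53 KO. The groups were apart, and the log2 fold change was 0.43 (SE 0.09, adjusted p = 0.00248).

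COL3A1, the chain of the collagen III of pliable tissues, was scarce, with 2.52, 2.56 and 3.90 CPM in p53 WT and 6.90, 5.51 and 5.76 CPM in p53 KO. Its log2 fold change was 1.04 (SE 0.26, adjusted p = 0.0086), and without p53 WT replicate 2 it was 0.94 (adjusted p = 0.0516). COL5A1, which with COL5A2 forms the collagen V that nucleates fibrils, went the opposite way. It had 136, 140 and 165 CPM in p53 WT and 34.9, 42.9 and 42.5 CPM in p53 KO. The fall was a log2 fold change of -1.88 (adjusted p = 1.06e-07, SE 0.12), with no overlap between groups. COL5A1 lies on chromosome 9 among genes whose local median log2 fold change, over the 50 nearest, was -0.54. With that median taken off it had -1.33 (adjusted p = 2.64e-06).

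The partner chain COL5A2 had 17.7, 24.6 and 27.4 CPM in p53 WT and 24.0, 33.0 and 26.5 CPM in p53 KO, values that overlapped. Its log2 fold change was 0.27 (SE 0.17, adjusted p = 0.303). The ratio of COL5A2 to COL5A1 counts was therefore 0.13 to 0.175 in p53 WT and 0.623 to 0.77 in p53 KO. The exact two-sided permutation p of this ratio was 0.1, the smallest that 3 against 3 libraries can give. COL5A3, a rarer collagen V chain, had 4.99, 4.07 and 3.49 CPM in p53 WT and 4.252, 6.69 and 3.96 CPM in p53 KO, with no call.

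COL1A2, the partner of COL1A1 in ordinary collagen I, was close to absent in both groups. It had 50, 18 and 1 counts in p53 WT and 25, 12 and 17 counts in p53 KO. Per kilobase of exon that was 0.0581 and 0.0912 CPM, beside 102 and 138 CPM for COL1A1. COL2A1, the cartilage collagen, had 36, 5 and 0 counts in p53 WT and 3, 0 and 0 in p53 KO and was not tested. With totals scaled, p53 KO had 0.0923 times the p53 WT count (exact binomial 95% limits of 0.0183 and 0.289, for counting error alone), and 36 of its 41 p53 WT counts came from 1 library.

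The other 3 fibrillar chains had no call and overlapped between groups. COL27A1 had 42.3, 44.7 and 56.7 CPM in p53 WT and 34.4, 51.7 and 37.4 CPM in p53 KO. COL24A1 had 2.66, 2.29 and 1.44 CPM in p53 WT and 3.79, 4.44 and 2.45 CPM in p53 KO. Its log2 fold change of 0.74 (adjusted p = 0.126) passed only without p53 KO replicate 3 (0.94, adjusted p = 0.0489). COL11A2, a partner of COL11A1, had 2.05, 1.63 and 1.85 CPM in p53 WT and 2.12, 1.27 and 2.25 CPM in p53 KO. The ratio of COL11A2 to COL11A1 was 0.0621 to 0.0849 in p53 WT and 0.0111 to 0.0312 in p53 KO (exact permutation p = 0.1, two-sided).

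The 6 basement membrane chains form 3 gene pairs that lie head to head, each pair transcribed outward from a shared region. These pairs moved differently: COL4A1 and COL4A2 fell, COL4A3 and COL4A4 rose, and COL4A5 and COL4A6 had no call, with values of opposite sign. The 4 called are 66.7% of the 6, beside 26.5% of all genes tested and 34.5% of those that reach 1 CPM in 3 libraries. The median log2 fold change of the 6 was 0.09. The sequence at the start of 1 gene of each pair is shown, because the paired genes start close to each other there. The COL4A2 window shares 226 bases with that of COL4A1, the COL4A3 window 82 with that of COL4A4 and the COL4A5 window 121 with that of COL4A6. They are RefSeq windows of 300 bases on GRCh38.p14, from 250 bases before to 50 after the start of the named gene. Capitals mark the letters CCAAT or GGGCGG (a GC box), on either strand.
COL4A2: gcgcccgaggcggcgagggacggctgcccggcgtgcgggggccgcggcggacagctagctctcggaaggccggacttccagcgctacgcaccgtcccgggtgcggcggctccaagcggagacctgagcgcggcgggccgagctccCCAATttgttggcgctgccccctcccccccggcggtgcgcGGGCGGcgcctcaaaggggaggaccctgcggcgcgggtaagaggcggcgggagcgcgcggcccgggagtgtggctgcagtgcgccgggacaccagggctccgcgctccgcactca
COL4A3: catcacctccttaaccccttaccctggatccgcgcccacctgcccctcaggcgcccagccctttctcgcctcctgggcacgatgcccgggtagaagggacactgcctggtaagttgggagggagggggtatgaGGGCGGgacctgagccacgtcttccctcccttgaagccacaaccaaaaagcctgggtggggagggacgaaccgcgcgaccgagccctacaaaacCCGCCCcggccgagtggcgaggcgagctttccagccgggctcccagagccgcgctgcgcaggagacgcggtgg
COL4A5: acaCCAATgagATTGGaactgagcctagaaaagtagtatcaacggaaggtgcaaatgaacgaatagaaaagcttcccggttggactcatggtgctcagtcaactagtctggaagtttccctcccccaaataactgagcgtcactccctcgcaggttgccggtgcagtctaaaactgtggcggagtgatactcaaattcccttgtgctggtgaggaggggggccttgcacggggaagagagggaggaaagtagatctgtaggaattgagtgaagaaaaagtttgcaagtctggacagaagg

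The COL4A2 window lies at chr13:110307034-110307333 on the plus strand, and COL4A1 starts 127 bases away on the minus strand, inside that window. It holds 1 CCAAT box and 1 GC box, and 77.7% of its bases are G or C. The COL4A3 window, chr2:227164374-227164673 on the plus strand, has 2 GC boxes and no CCAAT box, and COL4A4 starts 419 bases away. The COL4A5 window, chrX:108439588-108439887 on the plus strand, has 2 CCAAT boxes and no GC box, with 49.3% G or C, and the nearer of the listed starts of COL4A6 lies 380 bases away. Across all RefSeq windows of this length 34.6% held a CCAAT box and 45% a GC box on either strand, and 31.8% and 54.5% of the 44 windows of collagen genes did.

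COL4A1 and COL4A2, the chains of the collagen IV found in nearly all basement membranes, fell together. COL4A1 had 307, 333 and 378 CPM in p53 WT and 115, 170 and 141 CPM in p53 KO, a log2 fold change of -1.25 (adjusted p = 1.14e-05, SE 0.13). COL4A2 had 764, 777 and 858 CPM in p53 WT and 315, 421 and 443 CPM in p53 KO, a log2 fold change of -1.03 (adjusted p = 2.49e-05, SE 0.12). Neither gene's groups overlapped. The ratio of COL4A2 to COL4A1 counts stayed between 2.27 and 2.49 in p53 WT and between 2.47 and 3.13 in p53 KO, which overlap (exact permutation p = 0.2, two-sided). The antisense genes COL4A2-AS1 and COL4A2-AS2 were also lower, with log2 fold changes of -1.23 and -0.97. The libraries were stranded, but the strand setting used in counting was not stated, so their reads and those of COL4A2 cannot be told apart.

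COL4A3 and COL4A4, chains of the specialised collagen IV of kidney, lung and ear, rose together from low levels. COL4A3 had 0.203, 0.565 and 0.657 CPM in p53 WT and 2.00, 2.49 and 1.40 CPM in p53 KO, which is 2.1 on the log2 scale (SE 0.53, adjusted p = 0.00861). COL4A4 had 3.42, 4.56 and 7.23 CPM in p53 WT and 11.6, 14.7 and 8.67 CPM in p53 KO, a log2 fold change of 1.24 (adjusted p = 0.00392, SE 0.27). In both genes the p53 KO libraries were all above the p53 WT libraries. COL4A4 outnumbered COL4A3 by 8.08 to 16.8 times in p53 WT and by 5.82 to 6.18 times in p53 KO (exact permutation p = 0.1, two-sided).

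COL4A5, which joins COL4A3 and COL4A4 in that network, had 6.53, 8.80 and 8.996 CPM in p53 WT and 4.08, 7.37 and 3.56 CPM in p53 KO. Its log2 fold change was -0.68 (SE 0.27, adjusted p = 0.0843), and p53 KO replicate 2 overlapped the p53 WT range. Without that library it was -1.08 (adjusted p = 0.00639). COL4A6, the chain encoded opposite it, had 0.597, 0.669 and 0.863 CPM in p53 WT and 1.34, 1.66 and 0.801 CPM in p53 KO, a log2 fold change of 0.86 (adjusted p = 0.235, SE 0.50). The ratio of COL4A6 to COL4A5 counts did not overlap, at 0.076 to 0.0959 in p53 WT and 0.225 to 0.328 in p53 KO (exact permutation p = 0.1, two-sided). Both lie on the X chromosome in a neighbourhood with a local median of 0.26. With that median taken off COL4A5 had -0.94 (adjusted p = 0.0268) and COL4A6 had 0.61 (adjusted p = 0.453).

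**Figure D4:**
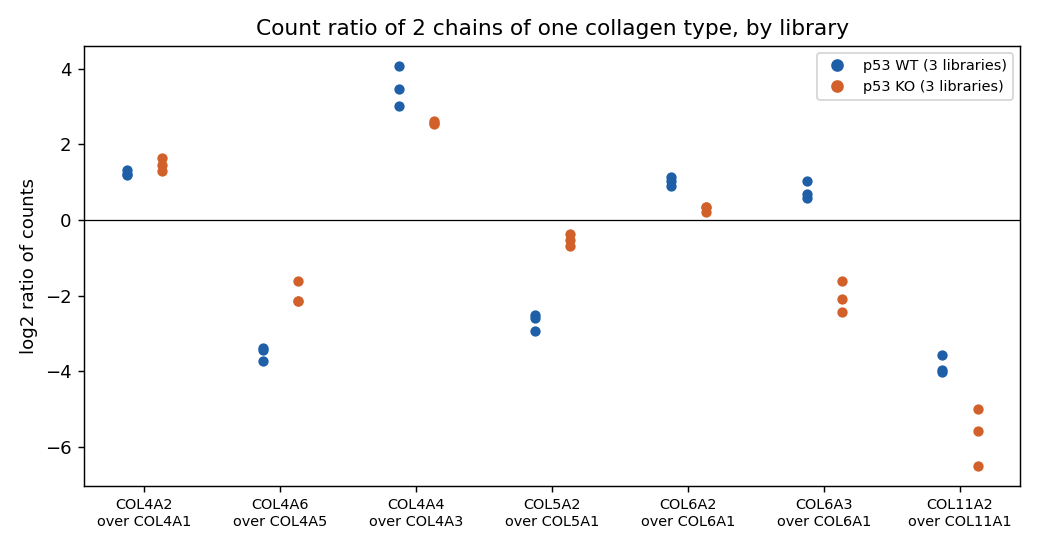
Log2 ratio of the counts of 2 chains of one collagen type in each library, for the 7 pairs with at least 10 counts of both chains in every library. The groups overlap for COL4A2 over COL4A1 and are apart for the other 6 ratios. All of these but COL4A6 over COL4A5 include a chain that was called by itself. Ratios of other gene pairs were not computed, and 40.8% of all single genes tested had groups that did not overlap.

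Of the beaded filament chains 2 of 3 tested fell (COL6A3 and COL6A2) and COL6A1 had no call, with a median log2 fold change of -0.59. Of all genes tested 14.4% were called lower, and a share of 3 chains is a coarse one. COL6A1, COL6A2 and COL6A3 are the partners in the usual collagen VI helix. COL6A3, its longest chain, had 215, 267 and 312 CPM in p53 WT and 49.7, 41.4 and 33.9 CPM in p53 KO. That is a log2 fold change of -2.66 (adjusted p = 4.87e-08, SE 0.16), the largest fall among the called chains. COL6A2 had 316, 311 and 314 CPM in p53 WT and 192, 206 and 228 CPM in p53 KO, a log2 fold change of -0.59 (adjusted p = 0.000343, SE 0.09). COL6A1 had 143, 167 and 153 CPM in p53 WT and 152, 177 and 181 CPM in p53 KO. These overlapped, and its log2 fold change was 0.14 (SE 0.10, adjusted p = 0.362).

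The 3 chains therefore stood in other proportions in the 2 groups. The ratio of COL6A3 to COL6A1 counts was 1.51, 1.60 and 2.04 in p53 WT and 0.327, 0.234 and 0.187 in p53 KO. For COL6A2 to COL6A1 it was 2.21, 1.87 and 2.05 in p53 WT and 1.26, 1.16 and 1.26 in p53 KO. Both ratios gave an exact two-sided permutation p of 0.1, and over the 7 ratios the lowest Benjamini-Hochberg adjusted p was 0.117, so no ratio could pass a threshold. Per kilobase of exon COL6A1, COL6A2 and COL6A3 had 36.3, 71.2 and 24.4 CPM in p53 WT and 40.1, 47.4 and 3.83 CPM in p53 KO. COL6A1 and COL6A2 are neighbours on chromosome 21, while COL6A3 lies on chromosome 2. COL6A5 and COL6A6, alternatives to COL6A3 in some tissues, had at most 10 and 23 counts in a library and were not tested.

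Among FACIT collagens 2 of 8 tested chains rose (COL16A1 and COL9A2), 1 fell (COL12A1) and 5 had no call. That is 37.5% called, beside 26.5% of all genes tested and 34.5% of those that reach 1 CPM in 3 libraries. The median log2 fold change of the 8 was -0.32. COL16A1, a widespread minor collagen of connective tissue, had 19.5, 12.6 and 14.8 CPM in p53 WT and 59.6, 77.5 and 84.8 CPM in p53 KO. The groups were far apart, with a log2 fold change of 2.24 (adjusted p = 6.71e-07, SE 0.17). Its neighbours on chromosome 1 were lower, with a local median of -0.37, and it had 2.61 (adjusted p = 1.97e-07) with that taken off. The start regions of COL6A3 and COL16A1, the called chains with the largest fall and the largest rise above 5 CPM, are shown as RefSeq windows of GRCh38.p14 with CCAAT and GC boxes in capitals.
COL6A3: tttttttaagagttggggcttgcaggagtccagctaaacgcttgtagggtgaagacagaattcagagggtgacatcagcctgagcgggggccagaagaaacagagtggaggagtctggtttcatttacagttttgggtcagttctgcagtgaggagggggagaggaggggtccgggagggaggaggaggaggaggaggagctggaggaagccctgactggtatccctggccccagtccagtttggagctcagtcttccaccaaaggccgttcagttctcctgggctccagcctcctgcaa
COL16A1: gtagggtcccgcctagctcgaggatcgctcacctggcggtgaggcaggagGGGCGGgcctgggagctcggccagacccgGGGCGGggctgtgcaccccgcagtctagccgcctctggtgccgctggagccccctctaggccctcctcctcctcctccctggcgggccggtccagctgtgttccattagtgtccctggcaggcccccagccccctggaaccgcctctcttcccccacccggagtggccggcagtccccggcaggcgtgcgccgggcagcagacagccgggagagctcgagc

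The COL6A3 window, chr2:237414115-237414414 on the minus strand, has neither motif, and the COL16A1 window, chr1:31703968-31704267 on the minus strand, has 2 GC boxes. Windows were listed for 32 of the 44 chains and for 14 of the 17 called ones. The p53 half-site consensus was searched on both strands in all of them and in all RefSeq windows. It was found in 1 called chain, COL17A1, or in 2.27% of the collagen windows, where 6.63% of all windows held it. None of the chains, 0 of 44, was marked in the authors' deposited table as intersecting a p53 cistrome, beside 124 of 35987 rows (0.345%). With so few rows marked, 0 of 44 does not set the chains apart from other genes. A match or its absence describes only the letters in these windows.

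COL12A1, a long FACIT chain of tendon and bone surface, was the most abundant FACIT, with 397, 481 and 581 CPM in p53 WT and 300, 447 and 320 CPM in p53 KO. Its log2 fold change was -0.45 (SE 0.15, adjusted p = 0.0431), but p53 KO replicate 2 lay above p53 WT replicate 1. Leaving out 1 library at a time lost the call 4 times in 6. It had -0.46 (adjusted p = 0.101) without p53 WT replicate 2 and -0.31 (adjusted p = 0.214) without p53 WT replicate 3. Without p53 KO replicates 1 and 3 it had -0.34 (adjusted p = 0.186) and -0.37 (adjusted p = 0.215). The authors' deposited table gives it an adjusted p of 0.537.

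COL9A2, a collagen IX chain of cartilage fibrils, had 1.70, 2.47 and 2.71 CPM in p53 WT and 3.21, 4.32 and 6.96 CPM in p53 KO, a log2 fold change of 1.07 (adjusted p = 0.027, SE 0.33). Its groups did not overlap, yet the call was lost without p53 WT replicate 1 (0.87, adjusted p = 0.108), p53 WT replicate 2 (1.13, adjusted p = 0.0667) or p53 KO replicate 3 (0.74, adjusted p = 0.125). Its chromosome 1 neighbours had a local median of -0.53, and it had 1.59 (adjusted p = 0.00363) with that taken off. Its partner COL9A3 was near the floor, with 5 to 23 counts a library, and COL9A1 had 0, 0 and 0 counts in p53 WT and 9, 0 and 0 in p53 KO. With totals scaled, the p53 KO count of COL9A1 was 3.79-fold a floor of 3 counts over the p53 WT group, but from 1 library. That value takes the p53 KO count as exact and is not a lower limit.

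COL22A1, found at tissue junctions such as those of muscle and tendon, had 20.2, 24.8 and 24.9 CPM in p53 WT and 17.05, 22.03 and 22.04 CPM in p53 KO, with no call (log2 fold change -0.19, SE 0.15, adjusted p = 0.401). COL19A1, a rare chain, had 45, 59 and 46 counts in p53 WT and 27, 7 and 0 in p53 KO. The groups did not overlap, but the log2 fold change of -2.43 (adjusted p = 0.0513, SE 0.86) missed the threshold. It passed without p53 WT replicate 1 (-2.77, adjusted p = 0.0487) and without p53 KO replicate 1 (-3.37, adjusted p = 0.0312). COL21A1 had 37, 15 and 10 counts in p53 WT and 0, 7 and 0 in p53 KO, and entered the test through its p53 WT libraries alone. Its log2 fold change of -2.60 (adjusted p = 0.183) became -7.29 (adjusted p = 0.0323) without p53 KO replicate 2, which left p53 KO at 0. COL14A1 had 4 to 24 counts a library and no call, and COL20A1, with 2 to 46, was not tested.

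Of the 12 chains in other classes 9 were tested, and COL8A1, COL13A1 and COL17A1 fell while COL26A1 rose. These are 44.4% of the 9, beside 26.5% of all genes tested and 34.5% of those that reach 1 CPM in 3 libraries. COL8A1, the collagen VIII chain of hexagonal lattices under endothelium, had 35.5, 35.6 and 41.1 CPM in p53 WT and 11.4, 10.1 and 9.62 CPM in p53 KO, a log2 fold change of -1.84 (adjusted p = 5.05e-07, SE 0.14). COL13A1, a transmembrane collagen of cell adhesion sites, had 28.5, 23.1 and 23.5 CPM in p53 WT and 6.57, 4.03 and 7.01 CPM in p53 KO, a log2 fold change of -2.1 (adjusted p = 5.05e-06, SE 0.21). For both, all p53 KO libraries were far below all p53 WT libraries. COL17A1, the transmembrane collagen of hemidesmosomes, had 16.9, 15.3 and 21.6 CPM in p53 WT and 6.51, 10.1 and 11.5 CPM in p53 KO, a log2 fold change of -0.95 (adjusted p = 0.00448, SE 0.21). COL13A1 and COL17A1 lie on chromosome 10, with local medians of -0.34 and -0.24. They had -1.76 (adjusted p = 2.95e-05) and -0.71 (adjusted p = 0.0317) with these taken off.

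COL26A1, a chain outside the other classes, had 0, 2 and 9 counts in p53 WT and 82, 126 and 95 in p53 KO. With totals scaled, p53 KO had 34.8 times the p53 WT count (exact binomial 95% limits of 19.1 and 70.4, for counting error alone). For COL26A1 edgeR gave a log2 fold change of 5.07 (adjusted p = 0.00165, SE 0.99). It was over the filter in all 3 p53 KO libraries, at 1.11 to 4.76 CPM, and in 1 p53 WT library. Without p53 WT replicate 3, which held 9 of the 11 p53 WT counts, the fitted value was 7.50 (adjusted p = 0.000212). COL25A1, a transmembrane chain, had 29, 7 and 12 counts in p53 WT and 0 in all p53 KO libraries, and was not tested. With totals scaled, its p53 WT count was 12.7-fold a floor of 3 counts over the p53 KO group. COL23A1, also transmembrane, had 0, 17 and 1 counts in p53 WT and 0 in p53 KO, or 4.76-fold that floor, mostly from 1 library. Both values take the p53 WT count as exact and are not lower limits.

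COL18A1 and COL15A1, the multiplexins of vascular basement membranes, had no call. COL18A1 had 11.1, 8.41 and 6.16 CPM in p53 WT and 11.1, 10.2 and 13.5 CPM in p53 KO, and COL15A1 had 1.296, 1.09 and 0.739 CPM in p53 WT and 0.783, 0.0976 and 0.251 CPM in p53 KO. COL15A1 passed only without p53 KO replicate 1, where its log2 fold change went from -1.40 (adjusted p = 0.17) to -2.69 (adjusted p = 0.0227). COL7A1, which forms the anchoring fibrils of skin, had 7.41, 5.77 and 5.75 CPM in p53 WT and 11.2, 7.61 and 6.66 CPM in p53 KO, with no call (adjusted p = 0.193). COL8A2 and COL28A1 had at most 32 counts in a library and no call, and COL10A1, at 0 to 40 counts, was not tested.

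Several neighbourhoods of the genome were shifted between the groups, and the local median beside a chain gives that shift. With it taken off, all 8 chains called higher and all 9 called lower kept their call, and COL4A5 was also called lower. In that fit 19.7% of all genes were called, 9.51% higher and 10.2% lower. The authors' deposited table has 15 chains with an adjusted p under 0.05, 8 lower and 7 higher in p53 KO, and all 15 are among the 17 called here. The other two are COL12A1 and COL3A1, and COL3A1 has an adjusted p of 0.0623 in the authors' deposited table.

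Genes that modify, export, process, crosslink or bind collagen also moved in both directions. Of 52 such genes, all tested, 9 rose and 15 fell, or 46.2% called beside 26.5% of all genes, with a median log2 fold change of -0.15. Most of the 52 reach 1 CPM in 3 libraries, and of all genes past that filter 34.5% were called. Those named below beyond each list's 3 smallest adjusted p-values were chosen after their values were seen.

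Of these lists, collagen crosslinking enzymes had the highest share called, 80% of only 5 genes, beside 26.5% of all genes tested. In that list 3 were lower and 1 higher, with a median log2 fold change of -0.33. LOX, the lysyl oxidase that starts crosslinks between collagen molecules, had 114, 117 and 112 CPM in p53 WT and 54.7, 60.5 and 52.8 CPM in p53 KO, a log2 fold change of -1.03 (adjusted p = 5.07e-06, SE 0.10). Its relative LOXL1 had 117, 96.4 and 79.0 CPM in p53 WT and 51.4, 44.9 and 44.0 CPM in p53 KO, a log2 fold change of -1.06 (adjusted p = 5.8e-05, SE 0.14). LOXL4 went the other way, from 62.9, 61.4 and 70.9 CPM to 89.7, 125 and 131 CPM, a log2 fold change of 0.82 (adjusted p = 0.000424, SE 0.13). LOXL2 fell less, with a log2 fold change of -0.33 (adjusted p = 0.0406), and LOXL3 had 0.20 with no call.

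Of 8 genes for the removal of propeptides, 3 rose and 1 fell, with a median log2 fold change of 0.08. The 50% called is beside 26.5% of all genes tested and 34.5% of those that reach 1 CPM in 3 libraries. ADAMTS3, a protease that trims the amino end of procollagen, had 20.4, 23.9 and 21.98 CPM in p53 WT and 76.4, 83.3 and 56.3 CPM in p53 KO, a log2 fold change of 1.71 (adjusted p = 1.58e-06, SE 0.15). TLL1, a protease that trims the carboxy end, rose from 0.538 ± 0.178 to 4.85 ± 1.65 CPM (SD, n = 3), and PCOLCE, which enhances that cut, from 2.19 ± 0.511 to 7.60 ± 1.39 CPM (SD, n = 3). Their log2 fold changes were 3.15 and 1.77. ADAMTS2, the main amino end protease of collagen I, fell by 0.70 on the log2 scale (adjusted p = 0.0496), and BMP1 had -0.29 with no call.

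**Figure D5:**
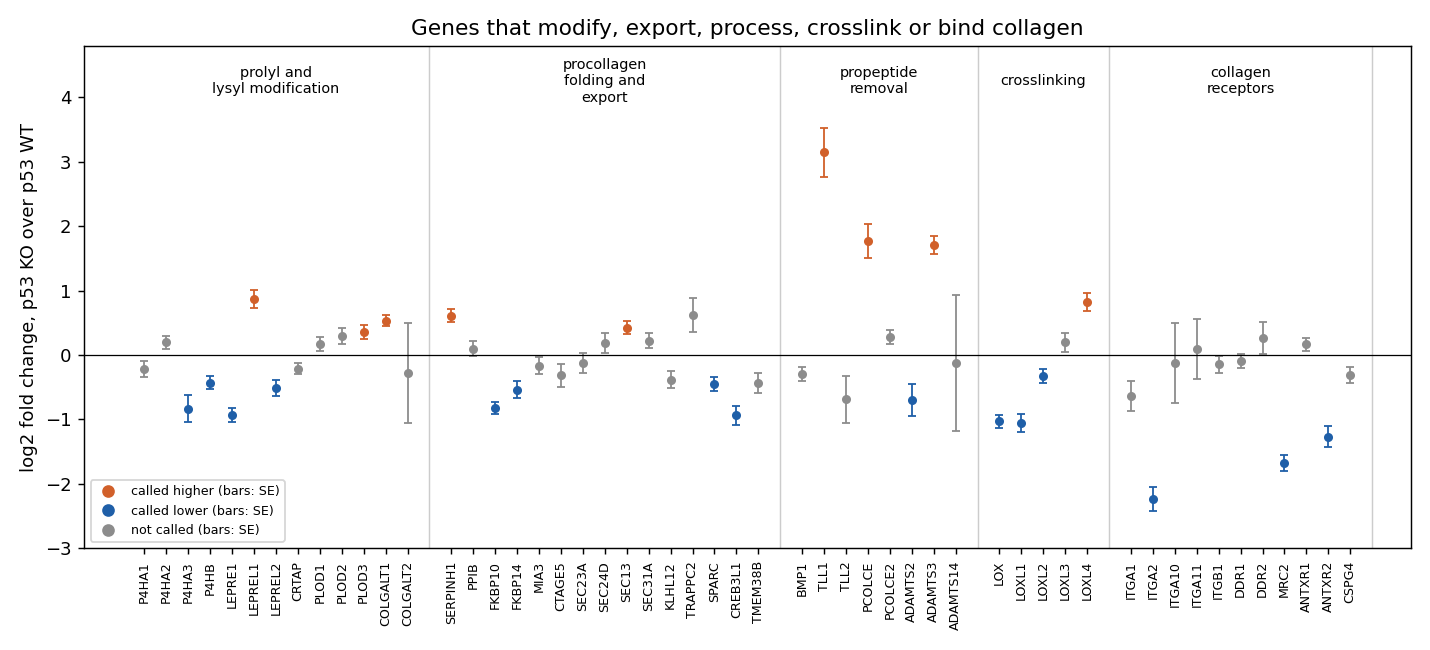
Log2 fold change (p53 KO over p53 WT) of 52 genes of collagen handling in 5 lists, with bars of 1 SE, coloured where adjusted p was under 0.05. TLL1, at 3.15, is the highest and ITGA2, at -2.23, the lowest.

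Of 13 genes for prolyl and lysyl modification, 3 rose and 4 fell, with a median log2 fold change of -0.21. The 53.8% called is beside 26.5% of all genes tested and 34.5% of those that reach 1 CPM in 3 libraries. LEPRE1, the prolyl 3-hydroxylase now called P3H1, was at 81.3 ± 8.35 CPM in p53 WT and fell to 42.5 ± 0.749 CPM (SD, n = 3), or by 0.93 on the log2 scale. LEPREL1, now P3H2 and active on collagen IV, rose from 20.2 ± 2.47 to 36.8 ± 4.92 CPM (SD, n = 3). COLGALT1, which adds galactose to hydroxylysine, rose from 149 ± 2.93 to 216 ± 9.81 CPM (SD, n = 3). PLOD3 also rose, and P4HA3, P4HB and LEPREL2 fell, with log2 fold changes of 0.36, -0.83, -0.43 and -0.51.

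Of 15 genes for procollagen folding and export, 2 rose and 4 fell (40% called, beside 34.5% of genes that reach 1 CPM in 3 libraries), with a median of -0.17. SERPINH1, the collagen chaperone HSP47, rose from 217 ± 10.9 to 333 ± 36.1 CPM (SD, n = 3). FKBP10, a prolyl isomerase that acts on procollagen, fell from 172 ± 9.02 to 97.4 ± 7.78 CPM (SD, n = 3). CREB3L1, a transcription factor of secretory cells that induces collagen I genes in bone, fell from 30.4 ± 1.60 to 15.9 ± 2.41 CPM (SD, n = 3). SEC13, a coat protein of export vesicles, rose by 0.43, while FKBP14 and the collagen-binding SPARC had -0.53 and -0.45 on the log2 scale.

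Of 11 collagen receptors 3 fell and 0 rose, with a median of -0.14. The 27.3% called is near the 26.5% of all genes and below the 34.5% of genes that reach 1 CPM in 3 libraries. ITGA2, the alpha chain of a collagen-binding integrin, had 105, 139 and 129 CPM in p53 WT and 28.7, 32.5 and 17.6 CPM in p53 KO, a log2 fold change of -2.23 (adjusted p = 1.22e-06, SE 0.18). MRC2, an endocytic receptor that takes up collagen for breakdown, fell from 218 ± 8.24 to 68.3 ± 13.5 CPM (SD, n = 3). ANTXR2, which binds collagen VI and collagen IV, fell from 61.0 ± 7.79 to 25.1 ± 6.00 CPM (SD, n = 3). ITGB1, the beta chain that pairs with collagen-binding integrins, and DDR1 and DDR2, receptor kinases for collagen, had no call. With the local median taken off, P4HB, PLOD3 and ADAMTS2 lost their calls, and KLHL12 and CSPG4, without a call before, were called lower. PLOD2 and PCOLCE2 changed sign: their log2 fold changes of 0.30 and 0.28, without a call, became -0.58 and -0.61, called lower, as local medians of 0.88 and 0.89 were taken off.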

How the data were processed

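The authors deposited raw counts per gene symbol for 6 libraries (55882 rows, 0 unused per-sample columns) and a table of their own comparison. Per the file headers that table holds the mean signal over libraries, log2 fold changes with a standard error and a test score, p-values, and a mark for a p53 cistrome. The submitters' processing notes name GRCh37 (hg19) and the tools HISAT2 2.1.0, fastp 0.21.0 and DESeq2 1.3.6. Neither the counting tool nor its annotation and strand setting is given in the sources used here. In that table the test score has the opposite sign to the fold change in all 35987 rows. Its fold change was taken as p53 WT over p53 KO, because its sign then matches the counts for all 36 tested chains.

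Groups came from sample titles. The test across genes was that of edgeR 4.0.16 under R 4.3.3 (quasi-likelihood F-test, robust, TMM factors, filterByExpr, group as the one term) and adjusted by Benjamini-Hochberg over all 22352 genes. The SE is the size of the fold change over the square root of F. Alternatives were other factors and filters, DESeq2 1.42.0, limma 3.58.1 voom, a replicate block, each library left out, and the local median over the 50 nearest protein-coding genes of at least 2 CPM in RefSeq order (GRCh38.p14, not the authors' build) as an offset. Exon lengths came from GENCODE 29. Replicates were not copies (lowest chi-square per degree of freedom 16.7). The fit was checked on simulated data. Of 52 pathway genes 3 matched by an older symbol, and 40 of 41 markers matched. Values are given for each library for chains of at least 1 CPM in either group, and for other genes as library values or mean ± SD. Of each pathway list the text names the 3 genes with the smallest adjusted p and those called past 2-fold. The chains and lists were chosen with earlier results of these data known. Some checked genes are not reported here.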

Additional observations from a re-analysis of the deposited data

How the results depend on the processing

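The chains called higher numbered 6 to 8 and those called lower 8 to 12 over 16 alternative settings, against 8 and 9, and pathway genes 7 to 10 and 13 to 17, against 9 and 15. Over the same settings 1659 to 3120 of all genes were called higher and 2099 to 3616 lower, against 2697 and 3227. The genes tested numbered 17176 to 36834, against 22352. Of the 17 called chains, 14 kept direction and call in all 16; COL3A1, COL9A2 and COL12A1 did not. COL12A1 was also lost with upper-quartile factors (-0.42, adjusted p = 0.0537 by edgeR) and with no factors (-0.43, adjusted p = 0.0687 by edgeR), and COL9A2 and COL12A1 at an adjusted p under 0.01. COL19A1 and COL4A5 gained a call without a filter, COL19A1 with DESeq2 and COL4A5 with limma-voom.

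Values that changed sign belonged to chains without a call. COL11A2 had -0.015 by limma-voom, -0.013 with the replicate block and -0.15 with the local median taken off. It had -0.06 without p53 WT replicate 2, and -0.09 and -0.10 without p53 KO replicates 1 and 3. With the local median taken off COL9A3 had -0.22, COL22A1 0.070 and COL8A2 0.24. COL8A2 had 0.37 without p53 KO replicate 1, COL28A1 -0.25 without p53 WT replicate 3, COL5A3 -0.038 without p53 KO replicate 2 and COL1A2 -0.040 without p53 KO replicate 3. With 1 library left out at a time, COL11A2 ranged from -0.10 to 0.24, COL8A2 from -1.18 to 0.37, COL28A1 from -0.25 to 1.09, COL5A3 from -0.038 to 0.38 and COL1A2 from -0.040 to 1.504. The cause was not tested. The 7 chain ratios kept their direction in all settings tried.

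Libraries with the same replicate number did not deviate together (correlations of 0.0171, 0.0343 and -0.0291), so the numbers were not taken as pairs. With the replicate block 8 chains were called higher and 9 lower, and 8 and 13 pathway genes, beside 2297 and 2862 of all 22352 genes. Scarce chains such as COL1A2, COL8A2 and COL28A1, had SEs of about 1 on the log2 scale, so changes of 2-fold were not detectable at this depth.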
